A study of Mus musculus with 2 samples.

Results

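Igf2, H19 and 8 further genes of the insulin-like growth factor (IGF) system were followed in the newborn mouse adrenal gland. The members were chosen by gene symbol: the ligands Igf1 and Igf2, the receptors Igf1r and Igf2r, the binding proteins Igfbp2, Igfbp3, Igfbp4, Igfbp5 and Igfbp7, and the noncoding RNA H19. All 10 were found, among 55536 annotated genes. All 10 passed 1 TPM in both animals and a mean count of 100, so none was lost to a filter on low values.

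The tissue was adrenal gland from B6CASTF1/J females at an age of 4 days, sequenced as total RNA. Such mice are offspring of a C57BL/6 by CAST/Ei cross, and the labels name no treatment or altered gene. There was 1 group with 2 replicates, called animals here, and no second condition, so no difference between conditions could be tested. The label texts do not settle which mouse gave replicate 2: its library text and its tissue text carry different animal numbers, and 1 donor record serves both samples. If the replicates share an animal, the SDs below measure the spread between samples of it.

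IGF1 and IGF2 are secreted growth factors that act mainly through IGF1R, a tyrosine kinase receptor that feeds the PI3K and AKT pathway. IGF2R carries IGF2 to lysosomes for breakdown, and the IGF-binding proteins hold the ligands outside cells and set how much reaches the receptor. Igf2 and H19 are neighbouring imprinted genes: Igf2 is transcribed mainly from the paternal chromosome and H19 mainly from the maternal one. Both are high in many tissues before birth and are shut down in most of them in the weeks after it. The tables used here do not split reads by parental allele.

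Libraries held 31838341 expected counts in replicate 1 and 32931868 in replicate 2. Levels are in TPM (a count divided by transcript length and scaled to a fixed library total) and allow genes to be compared per length; they are given as mean ± SD over the animals (n = 2). Defining genes of the gland were abundant in both: the 7 cortex markers summed to 6068 and 6684 TPM, and the 7 medulla markers to 1887 and 2212 TPM. Markers of other tissues were detected as well, in unequal amounts. The 8 pancreas markers made 3806 TPM of replicate 1 and 0.51 TPM of replicate 2, where Ins1, Ins2, Gcg, Prss2 and Cela2a were at 0. The 8 kidney markers summed to 122 and 13.5 TPM. In the other direction, the 9 skeletal muscle markers summed to 375 and 2346 TPM, and the 8 liver markers to 119 and 497 TPM. In bulk samples such as these, fewer cells of a type and less RNA per cell cannot be told apart.

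H19, Igf2 and Igfbp7 had the highest mean levels of the 10 genes. Over the animals H19 averaged 622 ± 404 TPM, Igf2 337 ± 166 TPM and Igfbp7 271 ± 9.07 TPM. The next level down held Igfbp4 and Igfbp5, at 77.1 ± 3.32 and 52.0 ± 2.04 TPM. Both receptors, Igfbp3, Igf1 and Igfbp2 lay between 12.3 and 30.5 TPM. By the rule that ranges must not overlap and the gap must exceed the larger SD, H19 and Igf2, Igf2 and Igfbp7, and Igf1r and Igfbp3 did not differ as neighbours in this order, and the other 6 neighbouring pairs did. The order of the means was the same in a second deposited quantification, where Igf2r and Igf1r, and Igfbp3 and Igf1, were not separated either.

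**Figure D1:**
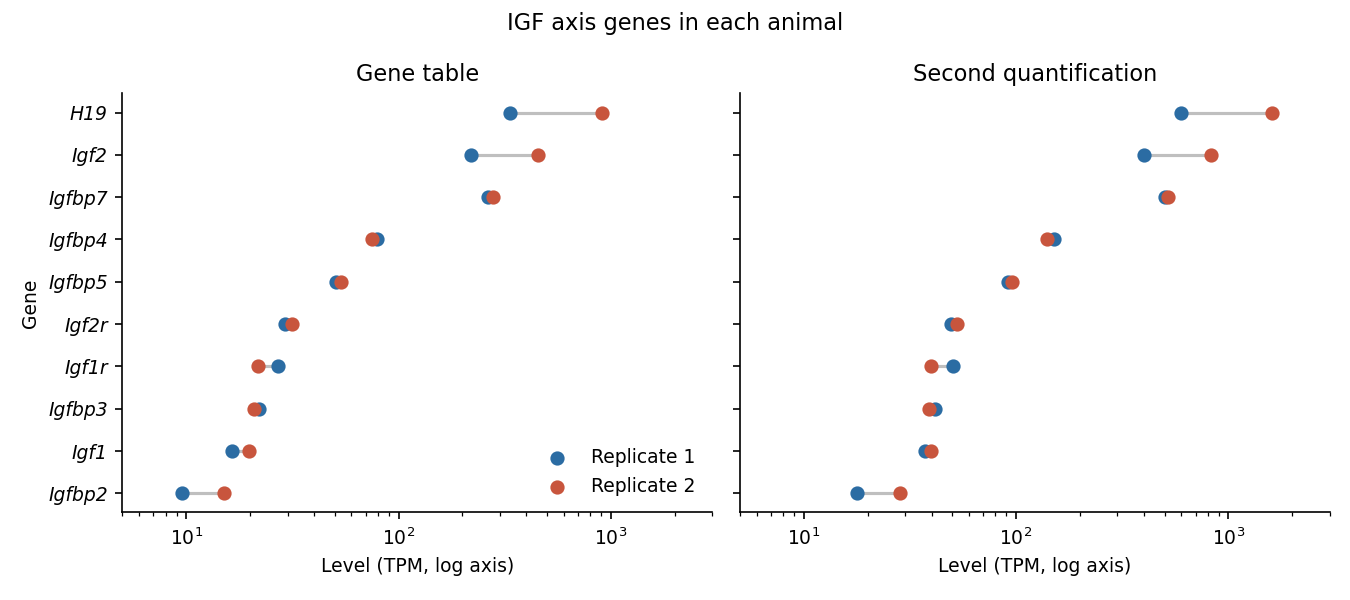
Level of each of the 10 genes in TPM on a log axis, in the gene table (left) and in the second quantification (right); points are the animals, joined by a line, and genes are ordered by their mean in the gene table. H19 and Igf2 stand out by the distance between their points (336 to 907 TPM and 220 to 454 TPM in the gene table), while Igfbp7 lies at 265 and 278 TPM.

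The growth factor Igf2 (ENSMUSG00000048583.16; chromosome 7, 142650766 to 142666816, minus strand, build mm10) had 220 TPM in replicate 1 and, at 454 TPM, more in replicate 2, from 14368 and 29161 counts. Replicate 2 was 2.02-fold higher, a log2 ratio of 1.02 (95% interval 0.99 to 1.05). Such intervals cover counting error only and say nothing of the spread between animals. Gm49394, a gene model that overlaps Igf2 on the same strand and could share its reads, was given 0 and 4.81 counts. By mean TPM, Igf2 ranked 108 among nuclear protein-coding genes in these samples. Igf2 was below Igfbp7 in replicate 1 and above it in replicate 2, with Igfbp7 at 1.21 and 0.612 times the Igf2 level. The TPM of Igf2 is a sum over its transcripts, in which short ones weigh more than their reads. In replicate 1, Igf2-203, Igf2-207 and Igf2-208 took 12.8%, 11.6% and 24.2% of it, on 3.32%, 1.51% and 9.81% of Igf2 counts. Every comparison of the Igf2 level with that of another gene carries this limit.

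The imprinted noncoding RNA H19 (ENSMUSG00000000031.16; chromosome 7, 142575529 to 142578143, minus strand) lies 72.6 kb downstream of Igf2. Its level was 336 TPM for replicate 1 and 907 TPM for replicate 2, from 20734 and 57886 counts. Replicate 2 was 2.78-fold higher (95% interval 2.74 to 2.83), a log2 ratio of 1.48. H19 ranked 6 among long noncoding RNAs by mean TPM. It exceeded Igf2 in each animal, by 1.53 times in replicate 1 and 2.00 times in replicate 2, so both genes were higher in replicate 2 and H19 by the larger factor.

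These were the members that passed 2-fold between the animals, in the direction of replicate 2: 2 of 10, where 1.5% of the 13734 genes that reached a mean count of 100 did so. Toward either animal 3.21% passed. Of these 13734 genes, 2.48% had a ratio farther from 0 than H19 and 3.17% one farther than Igf2. In the second quantification the same 2 passed, against 1.51% of 14015 genes. Among the 266 genes that reached a mean count of 10000, a limit chosen after these values were seen, 2.26% were higher in replicate 2 by 2-fold. That group was Igf2, H19, the liver gene Alb and the skeletal muscle genes Myh8, Acta1 and Ttn. Igf2 lay so close to 2-fold that the scaling decided its call: its log2 ratio was 0.94 when libraries were scaled to their ERCC spike-in RNA and 0.97 when scaled to their totals, while H19 stayed past 2-fold under all 6 scalings and tables tried, at 1.40 to 1.51.

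Skeletal muscle and liver markers moved in the same direction as Igf2 and H19. All 9 skeletal muscle markers were higher in replicate 2; the median of their log2 ratios was 2.58 (range 1.02 to 2.83), and all 8 with enough counts passed 2-fold. Among them Acta1, the actin of skeletal muscle, went from 128 to 840 TPM, and Ckm, muscle creatine kinase, from 36.9 to 259 TPM. All 8 liver markers were higher too, with a median of 2.08 (range 0.89 to 2.35); Alb, serum albumin, went from 60.3 to 269 TPM. None of the skeletal muscle markers was at 0 in either animal, and none of the liver markers was. The 10 markers of capsule and fibroblasts had a median of 0.23, with 7 higher in replicate 2, and their sum went from 1115 to 1283 TPM. The direction was not particular to muscle and liver: all 7 cortex, all 7 medulla and all 7 macrophage markers were higher in replicate 2. Their medians were 0.14, 0.23 and 0.41, well under the ratios of Igf2 and H19. Of 5 adipose tissue markers 4 were higher, with a median of 0.29, and of 5 red blood cell markers none was. The part of any of these tissues in the Igf2 and H19 difference was not tested.

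**Figure D2:**
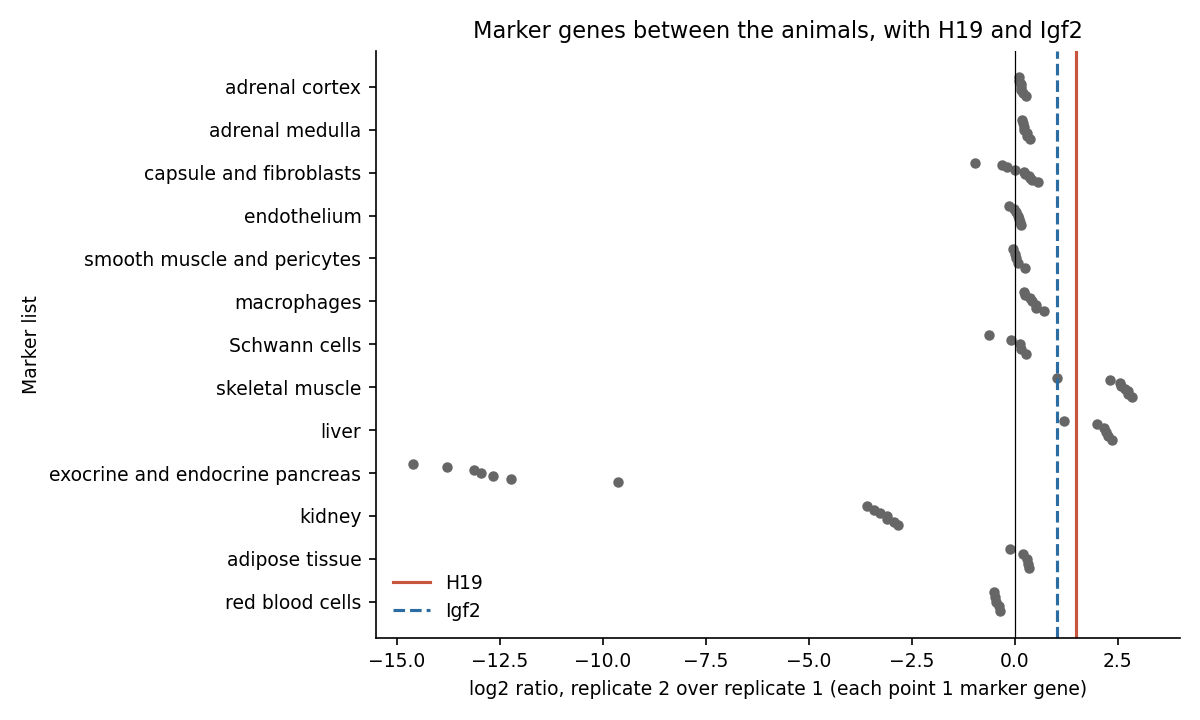
Log2 ratio of replicate 2 over replicate 1 for each marker gene that reached a mean count of 100, by list, with lines at H19 (solid) and Igf2 (dashed). Skeletal muscle and liver markers lie at or to the right of the Igf2 line (1.02), most of them also past the H19 line (1.48), markers of cortex and medulla lie near 0, and those of pancreas and kidney lie far to the left.

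Igf2 reads were assigned to transcripts with several annotated start sites. Use of the starts themselves was not measured directly. The annotation holds 9 Igf2 transcripts, and all 9 received reads in the first quantification. Grouped by first exon, the transcripts Igf2-201 and Igf2-202, which begin in the exon at 142657388 to 142657496, took 41.8% of Igf2 counts in replicate 1 and 40.5% in replicate 2. Igf2-205, whose first exon lies just upstream at 142658364 to 142659489, took 33.0% and 33.7%. The group of Igf2-204 and Igf2-206 took 10.6% and 10.3%. The most upstream start, that of Igf2-203 at 142666776 to 142666816, took 3.32% and 3.89%, and Igf2-207, which begins between Igf2-203 and Igf2-204, took 1.51% and 2.08%. The groups kept nearly the same shares in both animals, although their counts differed about as the gene did.

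The promoters shown are that of the start with the most reads and that of the most upstream start, which took few reads. Each is the 250 bases before the start on the minus strand, from RefSeq, build GRCm38.p6, 5′ to 3′. The first is chr7:142657497-142657746 and the second chr7:142666817-142667066. Capitals mark matches on either strand to GGGCGG (a GC box), CCAAT (printed as ATTGG where it lies on the other strand) and ATAAAA, an AT-rich word picked after the sequence was seen.
Start of Igf2-201: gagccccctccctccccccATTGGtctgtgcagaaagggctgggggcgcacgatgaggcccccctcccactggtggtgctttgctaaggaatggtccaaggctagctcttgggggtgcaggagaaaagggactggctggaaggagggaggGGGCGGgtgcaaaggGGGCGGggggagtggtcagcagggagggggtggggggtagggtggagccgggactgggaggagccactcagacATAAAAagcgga
Start of Igf2-203: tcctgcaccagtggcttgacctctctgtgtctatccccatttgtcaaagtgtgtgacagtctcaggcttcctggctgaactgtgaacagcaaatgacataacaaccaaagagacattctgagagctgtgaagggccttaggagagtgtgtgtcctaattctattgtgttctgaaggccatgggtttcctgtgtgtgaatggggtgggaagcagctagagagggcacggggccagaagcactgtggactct

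In the Igf2-201 promoter, GGGCGG occurred at 100 and 85 bases before the start, CCAAT at 231 bases and ATAAAA at 12 bases. TATAAA, the usual TATA word, was searched as well and was in neither window, and the Igf2-203 promoter held none of the 4 words. In the same 250 bases of 32851 RefSeq promoters, GGGCGG was found in 32.7%, CCAAT in 33.8%, ATAAAA in 17.0% and TATAAA in 12.4%. ATAAAA differs from TATAAA and can overlap it by 5 bases. The matches describe the letters only.

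Every first-exon group of Igf2 was higher in replicate 2 in the first quantification, by 1.96-fold for Igf2-201 and Igf2-202, 2.06-fold for Igf2-205, 1.98-fold for Igf2-204 and Igf2-206, and 2.37-fold for Igf2-203. Igf2-207 rested on 218 and 608 counts and was 2.78-fold higher. The second quantification gave 1.96-fold, 2.14-fold and 2.12-fold for the 3 main groups. It gave Igf2-207 no reads, and Igf2-203 only 28.6 and 239 estimated counts, so the 2 minor starts are not settled by these tables. Igf2-208 and Igf2-209, which begin inside the gene, were together 1.96-fold higher in the first quantification and 2.11-fold in the second. As assigned, the Igf2 difference was thus spread over several groups. The transcripts overlap, however, so each quantification had to divide reads among them, and like ratios can follow from that division. The ratios therefore do not measure the starts one by one.

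**Figure D3:**
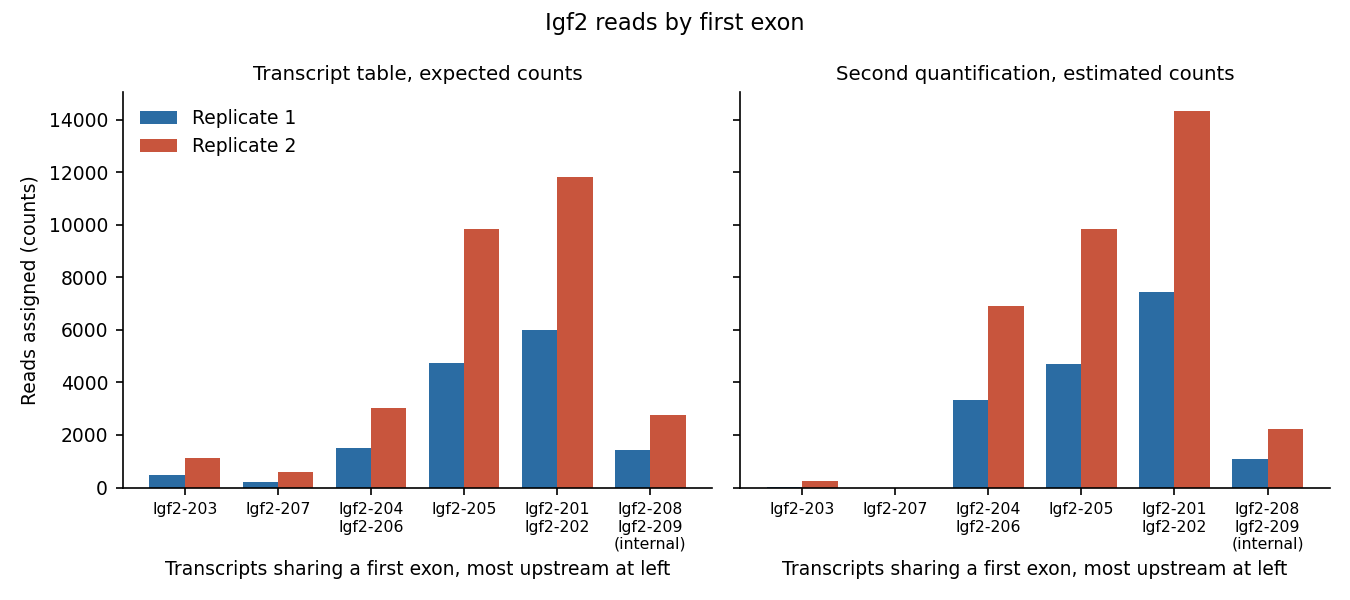
Counts assigned to Igf2 transcripts grouped by first exon, from the most upstream start at left, in the transcript table (left) and the second quantification (right); bars are the animals. Replicate 2 is above replicate 1 in each group with reads, and Igf2-201 with Igf2-202 is the tallest group in both panels, at 6002 and 11812 counts in the left one.

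Shares of single Igf2 transcripts by TPM depended on the table. The short processed transcript Igf2-208 took 24.2% and 22.3% of Igf2 TPM in the first quantification and 12.2% and 11.1% in the second. Igf2-209 took 0.1% in each animal in the first and 33.4% and 35.0% in the second. Igf2-208 and Igf2-209 begin inside the gene and are short, so few reads give them a large share per length: together they held 9.83% and 9.51% of Igf2 counts. Igf2-201 took 14.1% and 12.7% of TPM, Igf2-202 took 15.7% and 14.9%, and Igf2-205 took 15.2% and 14.7% in the first quantification. There Igf2-203 took 12.8% and 14.2% and Igf2-207 took 11.6% and 15.2%, more than their shares of counts. Both are short, at 650 and 376 bases. In the second quantification Igf2-203 took 1.05% and 4.10% of TPM, and Igf2-207 none. Shares agreed between animals more closely than between tables.

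H19 was carried mainly by 1 transcript. H19-202, the full-length RNA of 5 exons, held 82.1% of H19 TPM in each animal in the first quantification and 77.3% and 78.7% in the second. The rest fell differently in the tables: H19-207 held 11.7% and 11.6% in the first against 0.9% and 0.3% in the second, and H19-206 held 0.4% and 0.3% in the first against 15.7% and 15.6% in the second.

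H19 is also the host of a microRNA. The miR-675 hairpin (chr7:142577064-142577147, minus strand) lies in exons of H19-202, H19-205 and H19-206. Its mature forms are printed because they are the products of H19 that act on other RNAs; sequences are from RefSeq, GRCm38.p6, with the seed, bases 2 to 8, in capitals.
miR-675-5p: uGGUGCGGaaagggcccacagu
miR-675-3p: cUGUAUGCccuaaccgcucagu
The seeds of the arms differ from each other. The gene entry Mir675 was listed at 0 in both animals, as was Mir483, the microRNA gene inside an Igf2 intron. Mature microRNAs are shorter than the fragments of such a library, so these zeros are no measure of either microRNA.

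Igf1 (ENSMUSG00000020053.18; chromosome 10, 87858265 to 87937042, plus strand), the ligand that rises after birth under growth hormone, had levels of 16.5 and 19.7 TPM in replicates 1 and 2. Its mean was 18.1 ± 2.28 TPM, and the log2 ratio 0.22 (95% interval 0.14 to 0.30). Igf2 stood 13.4 times above Igf1 in replicate 1 and 23.1 times in replicate 2. The growth hormone receptor gene Ghr was at 21.6 and 18.6 TPM. Igf1-202 led the Igf1 transcripts with 61.2% and 57.1% of TPM. Igf1-203 held 22.0% and 23.3% in the first quantification and none in the second, where Igf1-205 held 36.2% and 29.5%.

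The receptors were expressed at similar levels. Igf1r (ENSMUSG00000005533.10; chromosome 7, 67952827 to 68233668, plus strand), the signalling receptor, was at 27.1 and 21.8 TPM, with a log2 ratio of -0.18 (95% interval -0.23 to -0.13). Igf2r (ENSMUSG00000023830.14; chromosome 17, 12682406 to 12769664, minus strand), the receptor that clears IGF2, was at 29.3 and 31.7 TPM, with a log2 ratio of 0.17 (95% interval 0.13 to 0.21). Igf1r was thus the lower receptor in each animal in the gene table, at 0.924 and 0.690 times Igf2r. In the second quantification it was at 1.03 times Igf2r in replicate 1 and 0.761 times in replicate 2. Each was carried mainly by 1 transcript, Igf1r-201 with 77.1% and 83.4% of TPM and Igf2r-201 with 97.6% and 98.5% in the first quantification. In the second, Igf1r-201 held 69.2% and 76.0%, and Igf1r-206, a retained-intron transcript listed at 0 in the first, held 11.9% and 11.3%.

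Igf2 RNA stood 7.51 times above Igf2r RNA in replicate 1 and 14.4 times in replicate 2. Of other receptor genes, the insulin receptor gene Insr was above Igf1r in each animal, at 39.6 and 36.4 TPM. M6pr, the smaller mannose 6-phosphate receptor, was at 50.1 and 48.0 TPM. Lrp1, a large endocytic receptor, was at 101 and 94.8 TPM, and Tmem219, a receptor of IGFBP3, at 12.5 and 11.8 TPM. Airn, the noncoding RNA that runs antisense across the start of Igf2r, was at 7.92 and 8.50 TPM. The sources used here do not say whether counting used the strand, so reads of Airn and Igf2r where they overlap cannot be told apart with certainty. Igf2os, antisense to Igf2, was at 0.48 and 0.63 TPM from 69 and 94 counts and carries the same limit.

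Igfbp7 led the binding proteins. It encodes a secreted protein of vessel walls and stroma that binds IGFs weakly. Igfbp7 (ENSMUSG00000036256.13; chromosome 5, 77349240 to 77408041, minus strand) was at 265 and 278 TPM, with a log2 ratio of 0.11 (95% interval 0.07 to 0.16). The 7 endothelial markers summed to 331 and 315 TPM.

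Igfbp4 and Igfbp5 followed. Igfbp4 (ENSMUSG00000017493.12; chromosome 11, 99041244 to 99054392, plus strand), whose product mainly restrains IGF action until cut by PAPP-A, was at 79.5 and 74.8 TPM. Igfbp5 (ENSMUSG00000026185.8; chromosome 1, 72857932 to 72874884, minus strand), which binds extracellular matrix as well as IGFs, was at 50.6 and 53.5 TPM. Their log2 ratios were -0.04 (95% interval -0.09 to 0.02) and 0.13 (0.09 to 0.17). Igfbp4-201 and Igfbp4-203 shared Igfbp4 TPM at 48.5% and 44.0% in replicate 1 and 48.8% and 43.8% in replicate 2. The second quantification gave Igfbp4-203 none and placed 45.2% and 47.6% on Igfbp4-202, so the identity of the second transcript differs by table. By counts Igfbp4-201 led clearly, with 84.4% and 84.6% in the first quantification. Igfbp4-203, a processed transcript of 785 bases, held 14.1% and 13.9% of counts there.

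Igfbp3 (ENSMUSG00000020427.11; chromosome 11, 7206086 to 7213923, minus strand), the main carrier of IGFs in adult blood, was at 22.07 and 20.95 TPM. Its log2 ratio was -0.03 (95% interval -0.14 to 0.07). Igfbp2 (ENSMUSG00000039323.18; chromosome 1, 72824503 to 72852474, plus strand), a binding protein that is high in fetal tissues and made by liver, was the lowest of the 10 genes at 9.55 and 15.1 TPM. It rested on 354 and 580 counts. Replicate 2 was 1.63-fold higher, a log2 ratio of 0.71 (95% interval 0.52 to 0.90), and 4.35% of tested genes had a ratio farther from 0. Igfbp2 thus passed 1.5-fold but not 2-fold; at 1.5-fold toward replicate 2, 3 of the 10 genes passed, against 2.46% of all genes tested. The liver markers moved the same way between the animals, as given above, and their part in the Igfbp2 ratio was not tested. Igfbp2, Igfbp3, Igfbp5 and Igfbp7 were each carried by their transcript 201, at 96.8% of TPM or more in both animals in the first quantification. In the second, Igfbp2-201 held 99.98% in replicate 1 and 88.2% in replicate 2. There Igfbp3-201, Igfbp5-201 and Igfbp7-201 held 94.6% or more. Igfbp2 and Igfbp5 are neighbours, 5.46 kb apart and on opposite strands.

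The 5 binding-protein genes together summed to 427 and 442 TPM in replicates 1 and 2. Of these sums, Igfbp7 was the main part, since Igfbp2, Igfbp3, Igfbp4 and Igfbp5 made 162 and 164 TPM. The 8 genes other than Igf2 and H19 summed to 499 and 515 TPM, whereas Igf2 and H19 together went from 556 to 1361 TPM. The median log2 ratio of the 8 was 0.12, with 5 of 8 higher in replicate 2, against 0.02 over all genes tested. Their median size was 0.15, against 0.11 over all genes tested. The largest differences between the animals in this gene set were those of H19 and Igf2, followed by that of Igfbp2.

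**Figure D4:**
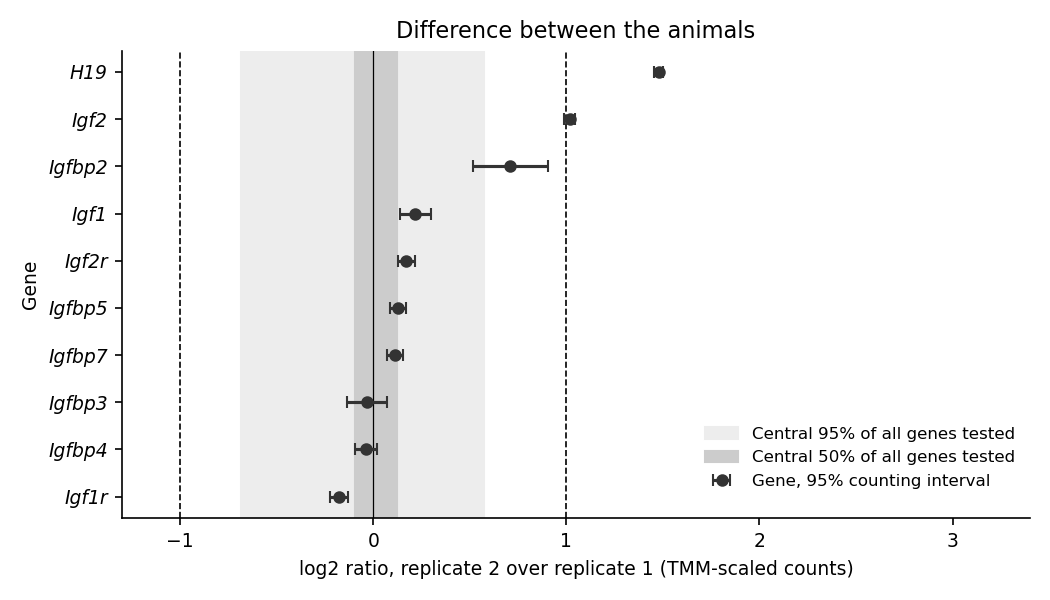
Log2 ratio of replicate 2 over replicate 1 for each of the 10 genes, with 95% counting intervals; grey bands hold the central 50% and 95% of the 13734 genes tested, and dashed lines mark 2-fold. H19 (1.48), Igf2 (1.02) and Igfbp2 (0.71) lie outside the central 95%, and the other 7 lie between -0.18 and 0.22.

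The wider pathway was expressed as well. Of 60 further genes in 5 lists (receptors and ligands, other binding proteins, proteases, RNA-binding proteins and signalling inside the cell), 49 were detected at 1 TPM in both animals and 54 had a mean count of 100. Among the 54, 1 passed 2-fold toward replicate 2 and 3 toward replicate 1, where 1.5% and 1.71% of all genes did. The median log2 ratio of the 54 was 0.04.

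Among the binding proteins outside the 10, Igfbp1 was low and uneven. Igfbp1, a binding protein made mainly by liver and set by insulin and fasting, was at 1.32 and 3.74 TPM. Its counts were 58 and 170, and its log2 ratio was 1.54 (95% interval 1.11 to 2.00), beside a median of 2.08 for the liver markers; their part in it was not tested. Igfbp1 lies 3.54 kb from Igfbp3, whose level differed little between the animals. Igfbp6, which prefers IGF2 over IGF1, was at 12.1 and 15.7 TPM. Igfals, the third partner of the circulating IGF complex, stayed under 1 TPM in both, at 0.71 and 0.53 TPM.

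The insulin genes differed through their absence in replicate 2. Ins2, the neighbour of Igf2 on its upstream side, was at 387 TPM in replicate 1 and 0 in replicate 2, at least 1475-fold higher in replicate 1 when 3 counts are taken as the floor for the other library. Ins1, on another chromosome, was at 109 TPM and 0, at least 1079-fold higher. All 7 pancreas markers with enough counts were lower in replicate 2 by 2-fold or more, and the part of pancreas RNA in the insulin values was not tested. Igf2 and Ins2, next to each other on chromosome 7, thus differed between the animals in opposite directions.

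Proteases that cut binding proteins were mostly low. Pappa, which encodes the IGFBP4 protease PAPP-A, was at 0.75 and 0.54 TPM, and Pappa2, which acts on IGFBP3 and IGFBP5, at 1.01 and 0.64 TPM. Pappa2 counts were 266 and 82, a log2 ratio of -1.70 (95% interval -2.08 to -1.34), a larger difference than that of its TPM. Kidney markers were lower in replicate 2 as well, with a median of -3.19, and their part in the Pappa2 ratio was not tested. The secreted serine proteases Htra1 and Htra3 were higher than these, at 18.9 and 22.8 TPM and at 13.9 and 15.2 TPM.

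Of 7 genes listed for RNA-binding proteins that hold Igf2 and H19 RNA, 5 were detected at 1 TPM in both animals. Lin28a, at 0.18 and 0.12 TPM, and Lin28b, at 0.26 and 0.12 TPM, were not. Igf2bp1, Igf2bp2 and Igf2bp3 encode the IGF2 mRNA-binding proteins, which are typical of fetal tissue. Igf2bp1 was at 9.75 and 7.5 TPM, Igf2bp2 at 18.1 and 15.5 TPM, and Igf2bp3 at 6.26 and 5.52 TPM. None of the 3 passed 2-fold, where 3.21% of all genes tested did so toward either animal. Igf2bp1 had a log2 ratio of -0.41, opposite in sign to Igf2. Elavl1, which encodes HuR, was at 34.2 and 36.7 TPM, and Khsrp at 55.8 and 50.4 TPM.

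All 28 genes of signalling inside the cell were detected, 21 of them at 10 TPM or more in both animals. None passed 2-fold, where 3.21% of the 13734 genes tested did so toward either animal. For a list of 28 genes, none is near that share. Among them Akt1 was at 119 and 123 TPM and Akt2 at 69.5 and 79.0 TPM; both encode AKT kinases. Grb10, an imprinted adaptor that restrains insulin and IGF receptors, was at 107 and 111 TPM. The receptor substrates were lower, with Irs2 at 11.9 and 12.5 TPM and Irs1 at 8.64 and 10.6 TPM. Foxo3, a transcription factor held in check by AKT, was at 25.6 and 25.3 TPM.

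Genes around Igf2 and H19 on chromosome 7 did not share 1 ratio. Of the 21 genes in this list, Igf2 and H19 included, 14 had a mean count of 100; 4 of these, with Igf2 and H19 among them, passed 2-fold toward replicate 2 and 1, Ins2, toward replicate 1, where 1.5% and 1.71% of all genes tested did. Besides Igf2 and H19, the 4 were Tnni2 and Tnnt3, troponins of fast skeletal muscle, which went from 28.4 to 186 TPM and from 42.1 to 256 TPM. Tnnt3 is also a marker in the skeletal muscle list. Between them, Lsp1, a gene of white blood cells, was at 15.4 and 10.7 TPM. Cdkn1c, an imprinted growth inhibitor farther along the cluster, was at 494 and 560 TPM, above Igf2 in each animal. Th, the tyrosine hydroxylase gene of the medulla, was at 189 and 237 TPM, and Cd81 at 235 and 241 TPM.

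**Figure D5:**
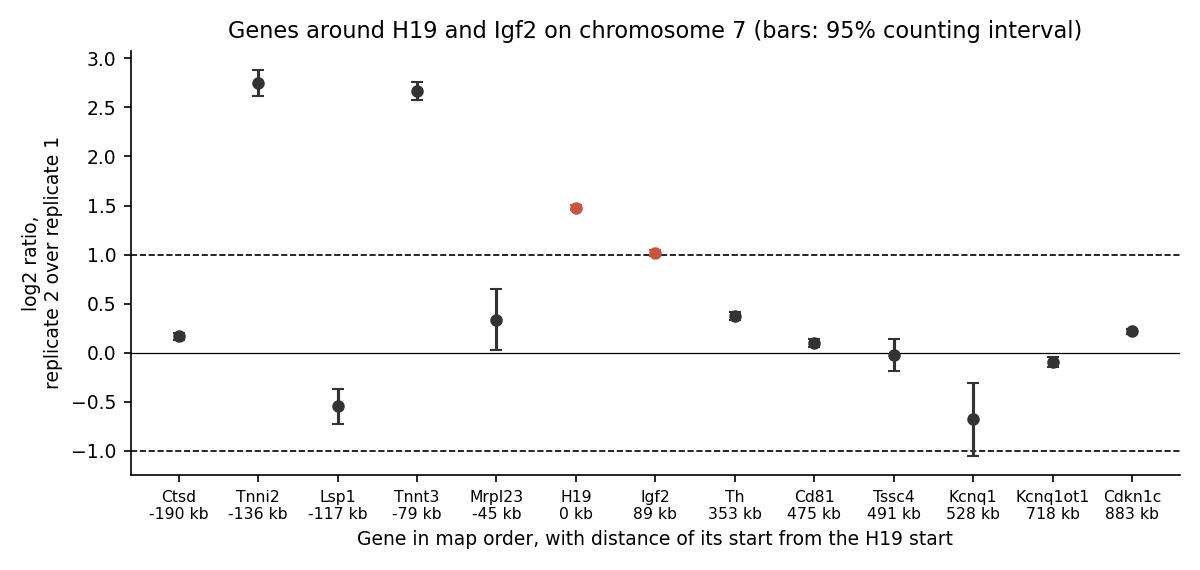
Log2 ratio of replicate 2 over replicate 1 for genes around H19 and Igf2 that reached a mean count of 100, in map order with the distance of each start from the H19 start; bars are 95% counting intervals, dashed lines mark 2-fold, and Ins2, at 0 in replicate 2, is left out. H19 and Igf2 (1.48 and 1.02, coloured) lie below the muscle genes Tnni2 and Tnnt3 (2.75 and 2.66). Ctsd, Lsp1 and Mrpl23 (0.17, -0.55 and 0.33), on the same side of H19 as these muscle genes, lie under 2-fold. So do the genes from Th to Cdkn1c.

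The genes whose levels in the 2 animals were nearest to those of Igf2, by Euclidean distance over log2(TPM + 1), were Gm10222, Fabp4 and Cox6b1. Those nearest to H19 were Aldoa, Rnu3a and Chgb. Over 2 samples of 1 tissue this measure says little beyond a like level. Of these 6, Gm10222 was the closest to its gene in ratio as well, at 182 and 327 TPM against 220 and 454 TPM for Igf2.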

How the data were processed

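Total RNA-seq of adrenal gland from 2 replicates of 1 group was analysed. Per the labels, libraries came from 300 ng of total RNA with ERCC spike-ins and a directional kit. The authors deposited expected counts and TPM per gene and per transcript (mm10, annotation M21, per the file headers and notes), and a second quantification of estimated counts and TPM per transcript, summed here to genes. The sources used here do not name the aligner, the quantifier, their versions or the use of strand.

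Levels are the deposited TPM. Ratios between replicates are from expected counts scaled by TMM (edgeR 4.0.16), with a prior of 0.5 counts and 95% exact conditional binomial intervals. Genes that reached a mean count of 100 passed at 2-fold, which is no test: with 2 samples of 1 group no test between conditions exists. Reads carry no molecular identifiers, so intervals and the floor of 3 counts cover counting error only. The libraries differed beyond sampling noise (chi-square per gene 58.3), so they are not copies of 1 library. Alternatives were DESeq2 1.42.0 size factors, ERCC totals, library totals, TPM ratios, the second quantification, other limits and leaving out each replicate.

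The text names all 10 members, members of the gene lists at 10 TPM or more in both replicates or past 2-fold, and 13 direct partners whatever their level; of the lists it gives the main ones. Transcripts are named when leading or at 10% of TPM in both replicates in either table. The members and lists were chosen with earlier results of these data known. Python 3.11.15, pandas 2.3.3, scipy 1.17.1 and R 4.3.3 were used, and the ratio step was tested on simulated data.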

Additional observations from a re-analysis of the deposited data

How the results depend on the processing

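The log2 ratio of Igf2 between the animals was 1.02 with TMM, 0.94 with ERCC totals, 0.97 with library totals and 1.05 from deposited TPM. That of H19 was 1.48 with TMM, 1.40 with ERCC totals, 1.43 with library totals, 1.51 in the second quantification and 1.43 from deposited TPM. With ERCC totals or library totals (the latter count added after seeing the data) 1 gene, H19, passed 2-fold in place of 2; with DESeq2 size factors, the second quantification or no minimum count it was 2. Scaling to ERCC totals moved the median log2 ratio of all genes from 0.02 to -0.06, by construction of the scaling. Every one of the 10 genes kept the sign of its ratio under the 6 settings. Requiring 10 TPM in place of 1 TPM left 32 of the 49 detected pathway genes, since fewer genes reach it. TPM of the 10 genes were 1.67 to 2.13 times higher in the second quantification; the cause was not tested. Without replicate 2, Igfbp7 ranked 2 and Igf2 ranked 3; the other ranks were the same without either replicate. No paired analysis was possible because there is 1 group. Precision is limited by 2 samples, and by counts for Igfbp2 and Igfbp1.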
